A study of Mus musculus with 6 samples.

Results

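The p53 pathway was examined through 35 genes, namely p53 itself (Trp53), its regulators and genes known as its transcriptional targets. They were taken from a list of gene symbols and grouped here by role. The genes were chosen with earlier results of these data known, so their shares were not tested against those of all genes. A gene entered when a probe set of the array carried its symbol and no other, and where a gene had several such probe sets the brightest one, averaged over the 6 arrays, was used. That left 31 of the 35 genes, all of which passed the filter on intensity, among the 17145 genes tested in the series. Trp53, Bax and Gdf15 had no probe set under their symbols in the annotation used, and Cdkn1a had only a probe set that carries a second symbol as well, so these 4 genes were not analysed here.

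p53 is a transcription factor that is held at a low level by the ubiquitin ligase Mdm2 and is stabilized when DNA is damaged or transcription is blocked. It then induces genes that stop the cell cycle, genes that promote cell death and genes that help repair DNA, and it induces Mdm2, which closes a negative feedback loop. The Arf protein of the Cdkn2a locus restrains Mdm2, and NIH/3T3 fibroblasts are known to have lost that locus while they kept p53.

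The cells were NIH/3T3, an immortalized mouse fibroblast line, stably transfected with HA-tagged RPB1, the catalytic subunit of RNA polymerase II. The wild type group (3 arrays) carried the unaltered RPB1 and the 8KR group (3 arrays) carried RPB1 with arginine in place of the lysines at the seventh position of its C-terminal repeats, which cannot be acetylated. The medium of both groups was DMEM that held bovine calf serum (10%) and α-amanitin (2 µg per ml), a toxin that inhibits RNA polymerase II, so no group was free of the toxin and its own effect was not measured. The titles call the replicates biological, but the sources used here do not say whether a group is 1 clone or whether its replicates came from separate cultures, and p-values then measure the spread between these samples, which may be technical.

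The 6 arrays were alike in overall signal, with median log2 intensities of 4.49 to 4.54, and no array stood apart. Of 10 fibroblast markers, 9 lay above a log2 intensity of 5.0 on every array, whereas 1 of 10 epithelial markers and none of 5 leukocyte or 5 endothelial markers with a probe set did. Lum was the fibroblast marker that did not, with a mean of 2.18 over the 6 arrays. The summed level of the fibroblast markers was 13.97 to 14.02 on the log2 scale in wild type and 13.91 to 13.93 in 8KR cells. Of the 9 tested, 2 fell at an adjusted p under 0.05 from limma (22.2%, against 5.39% of all genes tested). They were the prolyl hydroxylase gene P4ha1, by 0.59, and the collagen gene Col3a1, by 0.52 on the log2 scale. At an unadjusted p under 0.05 from limma 4 of the 9 lay lower (44.4%) and 0 higher, against 11.0% and 10.9% of all genes. The median log2 difference of the 9 markers was -0.19, against 0.01 over all genes tested. The part of these markers in the results below was not tested. The summed level of the epithelial markers was 7.69 to 7.85 in wild type and 7.67 to 7.81 in 8KR cells, and 0 of the epithelial, leukocyte and endothelial markers passed the test with limma, with an unadjusted p under 0.05 for Cldn4 and Tek alone. Polr2a, which encodes RPB1, measured 12.10 ± 0.01 in wild type and 12.13 ± 0.01 in 8KR cells (SD, n = 3 each; log2 difference 0.03, adjusted p = 0.860 from limma), and its probe set cannot tell the altered from the unaltered gene. Arrays measure the average of a culture, so fewer cells with a transcript and less of it per cell cannot be told apart.

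p53 binds DNA at sites made of a pair of adjoining 10-base units, here called decamers, each with purines, then C, A or T, A or T, G, and then pyrimidines. Promoter windows from RefSeq (GRCm38.p6), which run from 250 bases before to 50 bases after a transcription start, were available for 22 of the 31 genes, in 31 windows. They were searched for an exact decamer, and for a pair of decamers with up to 13 bases between them at most 2 mismatches in all and the C and G of each unit kept. The unit reads alike on both strands. An exact decamer stood in 11 of the 31 windows (35.5%), belonging to 10 genes. It stood in 8.36% of all 32851 windows of the table and in 7.25% of the 16816 windows of genes tested. A pair stood in 5 windows (16.1%), against 4.09% of all windows and 3.74% of those of genes tested. The windows of Aen overlap and hold the same decamer. The list holds genes known as p53 targets, so a share above that of all windows is no result about 8KR cells. The windows of the genes below that fell in 8KR cells and held a decamer are shown whole, on the strand of the gene, with the exact decamers and the best pair in capitals.
Ccng1, chr11:40755237-40755536, minus strand: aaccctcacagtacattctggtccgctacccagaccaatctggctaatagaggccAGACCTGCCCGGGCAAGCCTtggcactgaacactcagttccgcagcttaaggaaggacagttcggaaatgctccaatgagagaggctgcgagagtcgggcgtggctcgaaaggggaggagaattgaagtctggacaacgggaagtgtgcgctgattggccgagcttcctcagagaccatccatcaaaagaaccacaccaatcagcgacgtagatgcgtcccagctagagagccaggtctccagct
Gtse1, chr15:85859696-85859995, plus strand: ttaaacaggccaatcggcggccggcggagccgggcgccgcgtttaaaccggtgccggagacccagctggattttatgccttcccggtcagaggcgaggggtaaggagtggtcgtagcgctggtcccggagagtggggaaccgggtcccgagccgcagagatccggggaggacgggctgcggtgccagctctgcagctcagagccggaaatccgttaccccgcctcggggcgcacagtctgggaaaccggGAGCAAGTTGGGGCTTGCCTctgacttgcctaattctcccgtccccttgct
Mdm2, chr10:117710709-117711008, minus strand: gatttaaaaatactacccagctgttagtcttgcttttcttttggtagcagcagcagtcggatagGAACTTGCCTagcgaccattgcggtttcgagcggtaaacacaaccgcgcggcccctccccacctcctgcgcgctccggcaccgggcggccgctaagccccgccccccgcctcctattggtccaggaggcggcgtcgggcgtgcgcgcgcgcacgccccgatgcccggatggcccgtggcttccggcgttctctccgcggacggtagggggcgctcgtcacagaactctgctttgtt
Ei24, chr9:36797285-36797584, minus strand: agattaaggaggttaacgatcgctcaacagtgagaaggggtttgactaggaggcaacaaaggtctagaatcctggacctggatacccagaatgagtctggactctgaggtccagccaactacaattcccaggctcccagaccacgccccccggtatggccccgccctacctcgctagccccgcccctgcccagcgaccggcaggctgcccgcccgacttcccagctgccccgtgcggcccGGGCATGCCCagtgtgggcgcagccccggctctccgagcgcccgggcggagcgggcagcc

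In Ccng1 the pair had 1 mismatch and no bases between its units, and it ran from position -195 to -176, with the first transcribed base as position 0. In Gtse1 the pair also had 1 mismatch and no bases between its units, and it ran from position -1 to 18 of the second of its windows. Mdm2 held a single decamer that began at position -186, and Ei24 one that began at position -10. The other pairs belonged to genes that did not pass the test. They are given to show how the matches differ in spacing and mismatches, with bases between the units in lower case.
Rps27l, chr9:66946163-66946462, plus strand, 1 mismatch: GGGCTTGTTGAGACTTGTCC
Gadd45a, chr6:67037358-67037657, minus strand, 2 mismatches: GGACCTGGTTggctgaGGGCTAGCCC
Sesn1, chr10:41887189-41887488, plus strand, 2 mismatches: GCGCTTGGCCttcAAGCTTGTTT

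Aen, Polk and Ppm1d held a decamer without a pair. Of the 10 genes with an exact decamer, 8 had a lower mean in 8KR cells, 4 passed the test and the median log2 difference was -0.46. Of the 12 genes with a window and no decamer, 6 had a lower mean, 2 passed (Fas and Phlda3) and the median was 0.03. Tnfrsf10b, Pmaip1, Perp, Trp53inp1, Rrm2b, Ddb2, Xpc, Zmat3 and Tap2 had no entry in the promoter table, and of these 9 genes 6 had a lower mean, 1 passed (Zmat3) and the median was -0.15. Of all genes tested 5.39% passed, and whether the genes with and without a decamer differ was not tested. A match is a run of letters and does not show that p53 binds there. Only these windows were searched, so a gene without a decamer in them may hold a site elsewhere.

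Genes of the p53 pathway lay lower in 8KR cells more often than higher, and those that passed the test all fell. Of the 31 genes, 7 fell and 0 rose at an adjusted p under 0.05 from limma, or 22.6%, where 5.39% of all genes tested passed, 3.06% falling and 2.33% rising. The 7 were Ccng1, Mdm2, Gtse1, Fas, Ei24, Phlda3 and Zmat3, and 24 did not pass. At an unadjusted p under 0.05 from limma, 12 lay lower (38.7%) and 4 higher (12.9%), or 16 in all, where 21.8% of all genes tested did so, 11.0% lower and 10.9% higher. The 3 arrays of each group did not overlap for 17 of the 31 genes, 12 lower and 5 higher in 8KR, where this held for 29.7% of all genes tested, 14.7% lower and 15.0% higher. The median log2 difference was -0.18 over the 31 genes and 0.01 over all genes tested, and the values ran from -1.26 for Fas to 0.35 for Mdm4. Among the 12242 genes at least as bright as the dimmest of the 31, 7.26% passed, 4.11% falling and the rest rising.

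These calls rested on all 6 arrays. Leaving out wild type replicate 1 left 0 of the 31 genes past the threshold, leaving out replicate 2 left 2 (Gtse1 and Phlda3) and leaving out replicate 3 left 1 (Ccng1). Leaving out 8KR replicate 1 left 0, replicate 2 left 2 (Fas and Ei24) and replicate 3 left 1 (Ccng1). Of all genes tested, 274 to 293 passed in these fits, against 924 with all arrays. Of the 31, between 13 and 17 had an unadjusted p under 0.05 in these fits with 5 arrays.

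**Figure D1:**
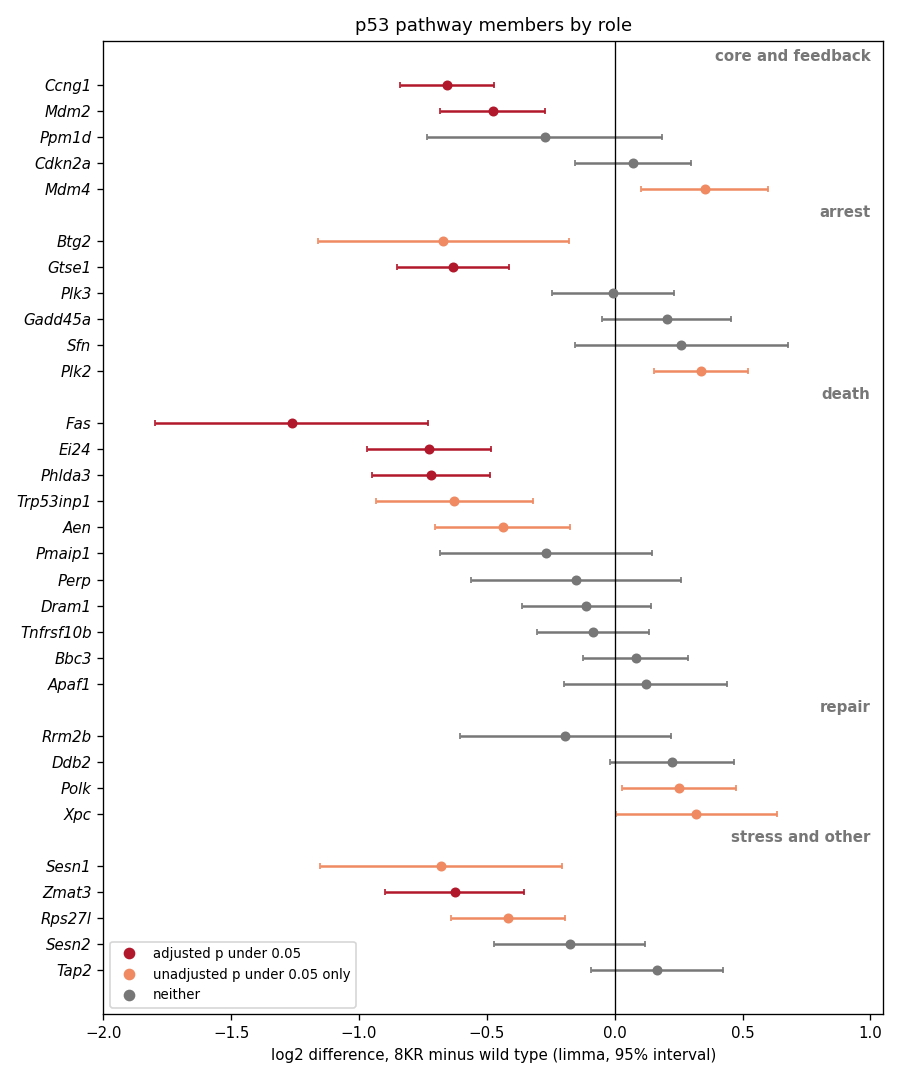
Log2 difference between 8KR and wild type cells (horizontal axis, log2 units) of the 31 genes, grouped by role, with the 95% interval from limma as a bar. Red marks an adjusted p under 0.05, orange an unadjusted p under 0.05 only, and grey neither. All 7 red points lie left of 0, and 3 of the 4 repair genes lie right of it.

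The counts by role given below stand beside 5.39% of all genes tested that passed. Among the core regulators and feedback genes, Mdm2 and Ccng1 fell and the others did not pass. Mdm2 had log2 intensities of 8.39, 8.22 and 8.35 in wild type and of 7.93, 7.80 and 7.79 in 8KR cells. Every 8KR value lay below every wild type value. Mdm2 fell by 0.48 on the log2 scale (standard error 0.08, adjusted p = 0.0374 from limma), to 71.8% of the wild type intensity. Ccng1, which encodes cyclin G1, a p53 target that recruits a phosphatase to Mdm2, measured 10.35, 10.30 and 10.22 in wild type and 9.58, 9.65 and 9.68 in 8KR cells. The log2 intensity of Ccng1 fell by 0.65 with a standard error of 0.08 and an adjusted p of 0.0114 from limma, to 63.5% of the wild type intensity, and had the smallest adjusted p of the 31 genes.

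Mdm4, a relative of Mdm2 that blocks p53 at its activation domain, lay the other way. It measured 7.58, 7.42 and 7.63 in wild type and 7.89, 7.77 and 8.03 in 8KR cells, without overlap, and the log2 difference of 0.35 (95% interval 0.10 to 0.60) did not pass (adjusted p = 0.128 from limma). Cdkn2a measured 4.09, 4.24 and 4.14 in wild type and 4.15, 4.36 and 4.16 in 8KR cells, below the median of each array, and its log2 difference was 0.07 (95% interval -0.16 to 0.30). Ppm1d, which encodes the phosphatase Wip1 that switches off the damage signal, measured 6.21, 6.22 and 6.26 in wild type and 5.89, 6.36 and 5.61 in 8KR cells. The 8KR arrays of Ppm1d lay on both sides of the wild type arrays, with a log2 difference of -0.27 (95% interval -0.73 to 0.19).

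**Figure D2:**
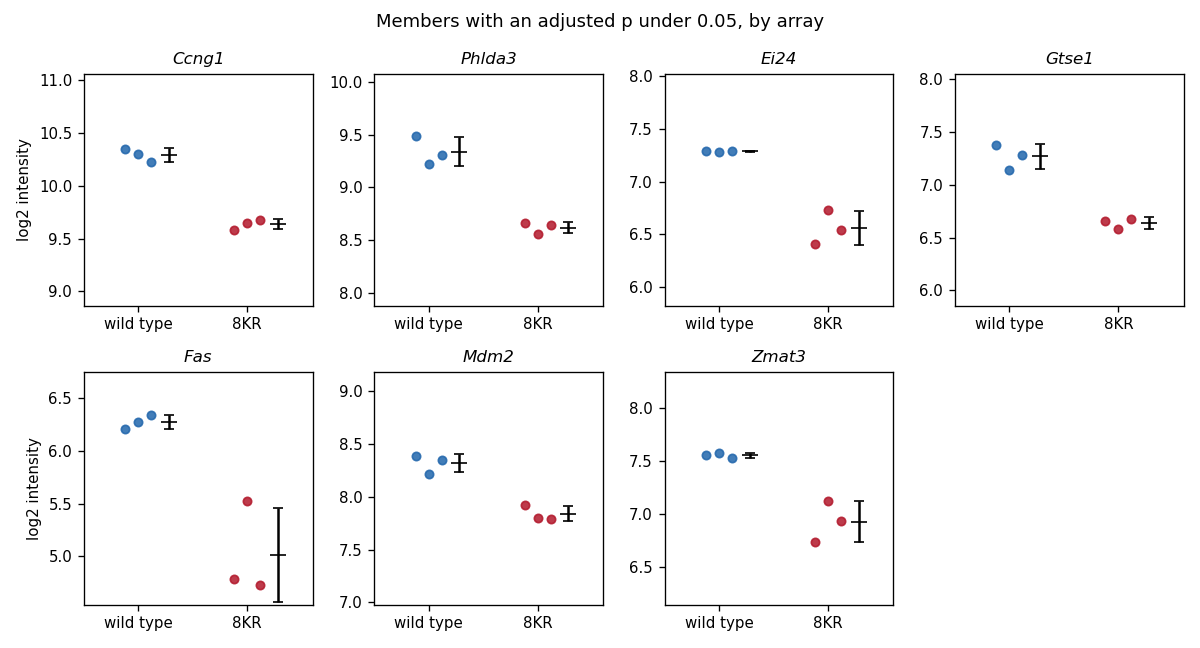
Log2 intensity (vertical axis, a span of the same size in every panel, not starting at 0) of the 7 genes that passed, with 1 point per array, wild type in blue and 8KR in red. The black mark is the mean and the bar the SD over 3 arrays. In each panel all 8KR points lie below all wild type points, and the 8KR points of Fas are spread the most, with an SD of 0.44.

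Of the genes of cell cycle arrest, 1 of 6 fell and 5 did not pass. Gtse1, which encodes a protein of S and G2 phase that binds p53 and carries it out of the nucleus, measured 7.38, 7.14 and 7.28 in wild type and 6.65, 6.58 and 6.68 in 8KR cells. It fell by 0.63 on the log2 scale (standard error 0.09, adjusted p = 0.0209 from limma). Gtse1 is a p53 target that in turn restrains p53. Btg2, an antiproliferative p53 target, measured 6.18, 6.78 and 6.75 in wild type and 5.65, 5.99 and 6.07 in 8KR cells. The groups did not overlap, but the spread within them was wide, and the log2 difference of -0.67 (95% interval -1.16 to -0.18) did not pass (adjusted p = 0.138 from limma).

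Plk2, a polo-like kinase gene induced by p53, lay higher in 8KR cells, at 8.99, 9.01 and 9.01 against 8.57, 8.73 and 8.70 in wild type. Its log2 difference of 0.34 (95% interval 0.15 to 0.52) did not pass (adjusted p = 0.0674 from limma). Gadd45a, a growth arrest gene, had a log2 difference of 0.20 (95% interval -0.05 to 0.46), and Plk3, another polo-like kinase gene, of -0.01 (95% interval -0.25 to 0.23). Sfn, which encodes 14-3-3 sigma and holds epithelial cells in G2, has 2 probe sets, with log2 differences of 0.26 and -0.22 and unadjusted p of 0.178 and 0.582 from limma. Their directions disagreed and neither passed.

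Among the genes of cell death, Fas, Ei24 and Phlda3 fell and 8 of 11 did not pass. Fas encodes a death receptor of the cell surface. It measured 6.21, 6.27 and 6.34 in wild type and 4.79, 5.52 and 4.73 in 8KR cells, and fell by 1.26 on the log2 scale (standard error 0.22, adjusted p = 0.0357 from limma), to 41.7% of the wild type intensity. This was the largest difference among the 31 genes. 8KR replicate 2 lay above the other 8KR arrays, and without it the log2 difference was -1.52 (adjusted p = 0.0107 from limma).

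Ei24, a p53-induced gene for a membrane protein of the endoplasmic reticulum, measured 7.29, 7.28 and 7.29 in wild type and 6.41, 6.73 and 6.54 in 8KR cells. The log2 intensity of Ei24 fell by 0.73, with a standard error of 0.10 and an adjusted p of 0.0187 from limma. Phlda3, which competes with the survival kinase Akt for membrane lipids, measured 9.49, 9.22 and 9.31 in wild type and 8.66, 8.56 and 8.64 in 8KR cells. The log2 intensity of Phlda3 fell by 0.72, with a standard error of 0.095 and an adjusted p of 0.0175 from limma, to 60.8% of the wild type intensity. In both genes the gap between the groups exceeded the range within either of them.

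Trp53inp1, a nuclear protein of stress-induced death, missed the threshold narrowly. It measured 7.30, 7.16 and 7.01 in wild type and 6.60, 6.66 and 6.33 in 8KR cells, without overlap, with a log2 difference of -0.63 (95% interval -0.93 to -0.32, adjusted p = 0.0520 from limma). Aen, an apoptosis-enhancing nuclease gene, measured 6.28, 6.06 and 6.14 in wild type and 5.56, 5.86 and 5.75 in 8KR cells, with a log2 difference of -0.44 (95% interval -0.70 to -0.17, adjusted p = 0.0868 from limma). Bbc3 (Puma), Pmaip1 (Noxa) and Apaf1, the scaffold of the apoptosome, had log2 differences of 0.08, -0.27 and 0.12, and their groups overlapped. Their 95% intervals were -0.12 to 0.29 for Bbc3, -0.68 to 0.14 for Pmaip1 and -0.20 to 0.44 for Apaf1. The death receptor gene Tnfrsf10b (-0.09), the autophagy gene Dram1 (-0.11) and the desmosome gene Perp (-0.15) likewise overlapped between groups.

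None of the 4 DNA repair genes passed, and 3 of them had higher means in 8KR cells. Polk, a translesion polymerase gene, measured 5.94, 6.0049 and 5.75 in wild type and 6.18, 6.16 and 6.10 in 8KR cells (log2 difference 0.25, 95% interval 0.03 to 0.47, adjusted p = 0.201 from limma). Xpc, which recognizes bulky lesions for nucleotide excision repair, measured 5.11, 4.9974 and 4.78 in wild type and 5.46, 5.28 and 5.11 in 8KR cells (log2 difference 0.32, 95% interval 0.005 to 0.63, adjusted p = 0.247 from limma). Ddb2, its partner in finding ultraviolet lesions, had a log2 difference of 0.22 (95% interval -0.02 to 0.47). In each of these 3 genes the arrays of the groups did not overlap, as in 29.7% of all genes tested. Rrm2b, the p53-inducible subunit of ribonucleotide reductase, had a log2 difference of -0.19 (95% interval -0.61 to 0.22), with overlap. At an unadjusted p under 0.05 from limma 2 of the 4 repair genes lay higher and 0 lower. Of the 11 death genes 0 lay higher and 5 lower by the same rule. Among all genes tested 10.9% lay higher and 11.0% lower. Whether the groups of genes differ was not tested.

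Of the remaining p53 targets, Zmat3 fell and 4 of 5 did not pass. Zmat3, an RNA-binding zinc finger protein that is among the most regular targets of p53, measured 7.56, 7.58 and 7.53 in wild type and 6.73, 7.12 and 6.93 in 8KR cells. It fell by 0.63 on the log2 scale (standard error 0.11, adjusted p = 0.0388 from limma), to 64.8% of the wild type intensity. Sesn1, a sestrin that restrains the growth kinase mTORC1, measured 5.95, 6.01 and 6.51 in wild type and 5.57, 5.67 and 5.20 in 8KR cells. Its groups did not overlap, and the log2 difference of -0.68 (95% interval -1.15 to -0.20) did not pass (adjusted p = 0.124 from limma). Sesn2, its paralogue, which also answers to amino acid stress, had a log2 difference of -0.18 (95% interval -0.47 to 0.12). Rps27l, a p53-induced ribosomal protein gene, measured 10.19, 10.30 and 10.34 in wild type and 9.73, 9.92 and 9.93 in 8KR cells (log2 difference -0.42, 95% interval -0.64 to -0.19, adjusted p = 0.0660 from limma). The antigen peptide transporter gene Tap2 had a log2 difference of 0.17 (95% interval -0.09 to 0.42).

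**Figure D3:**
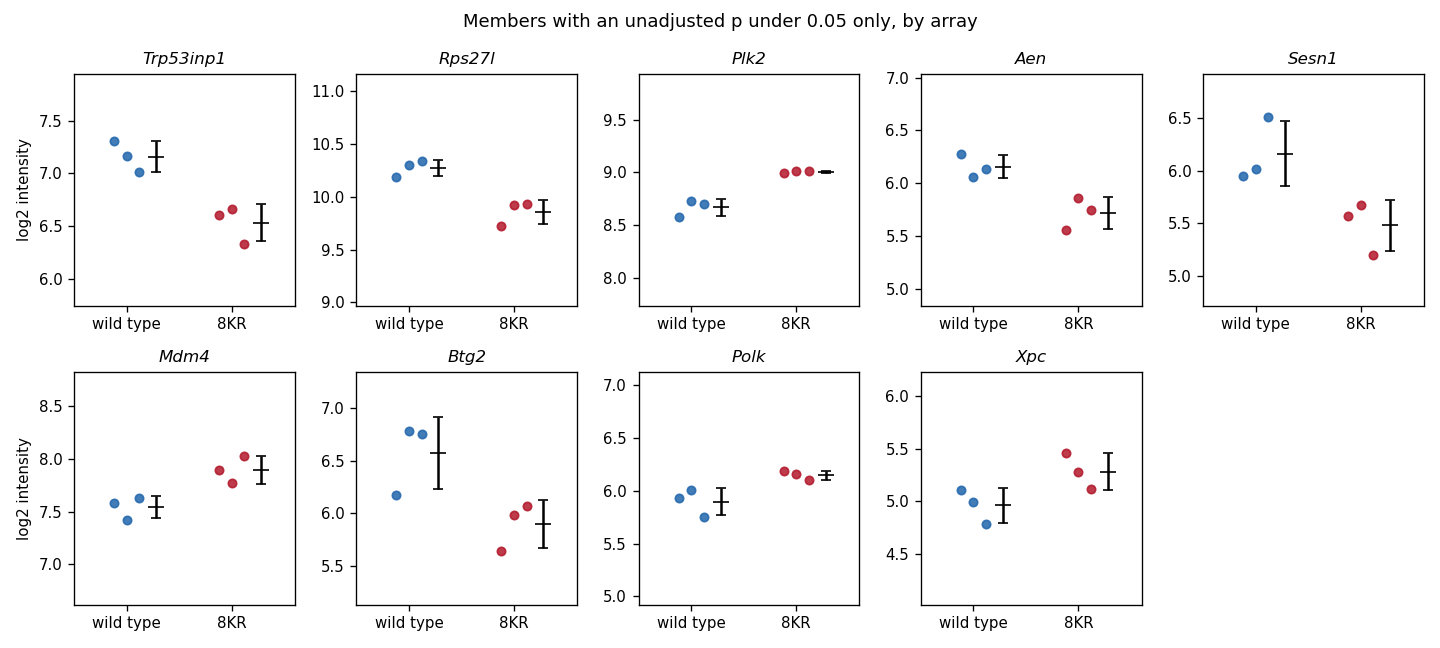
Log2 intensity (vertical axis, a span of the same size in every panel, not starting at 0) of the 9 genes with an unadjusted p under 0.05 that did not pass after adjustment, with 1 point per array, wild type in blue and 8KR in red, the mean in black and the SD over 3 arrays as a bar. Trp53inp1, Rps27l, Aen, Sesn1 and Btg2 lie lower in 8KR and Plk2, Mdm4, Polk and Xpc higher.

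To see whether the genes around them differed as well, the genes next to each of the 7 that fell were read in the RefSeq gene order, 3 tested genes on either side. Of these 42 neighbours, 3 passed the test (7.14%, where 5.39% of all genes tested passed), all lower in 8KR cells. They were Gramd4, 3 places from Gtse1 (log2 difference -0.64), Lipa, 2 places from Fas (-0.47), and Tmem218, 3 places from Ei24 (-0.66). The median over the 42 neighbours was -0.02. No neighbour of Mdm2, Ccng1, Phlda3 or Zmat3 passed. Of the 6 neighbours of Ccng1, 4 had lower means. Among them Nudcd2 (log2 difference -0.57), Hmmr (-0.52) and Pttg1 (-0.19) had an unadjusted p under 0.05 from limma. Of the 6 neighbours of Mdm2, 4 had lower means, and by the same rule Slc35e3 (-0.65) lay lower and Cpsf6 (0.22) higher. Near Phlda3, Tnnt2 (-0.41) lay lower and Nav1 (0.33) higher by that rule, and near Zmat3 no gene met it. Among the genes that did not pass, Plk2 stood apart, since 3 of its 6 neighbours passed and all 6 had higher means in 8KR cells, with Rab3c at a log2 difference of 2.85. Prelp, 2 places from Btg2, fell by 2.67 on the log2 scale, and Lactb, next to Rps27l, fell by 0.46. Plekhf2, 2 places from Trp53inp1, went against that gene and rose by 0.56 on the log2 scale. All 6 neighbours of Sesn1 had lower means, and 1 of them, Foxo3, passed. The part of position in the values of Ccng1, Mdm2, Plk2, Sesn1 and the other genes was not tested.

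**Figure D4:**
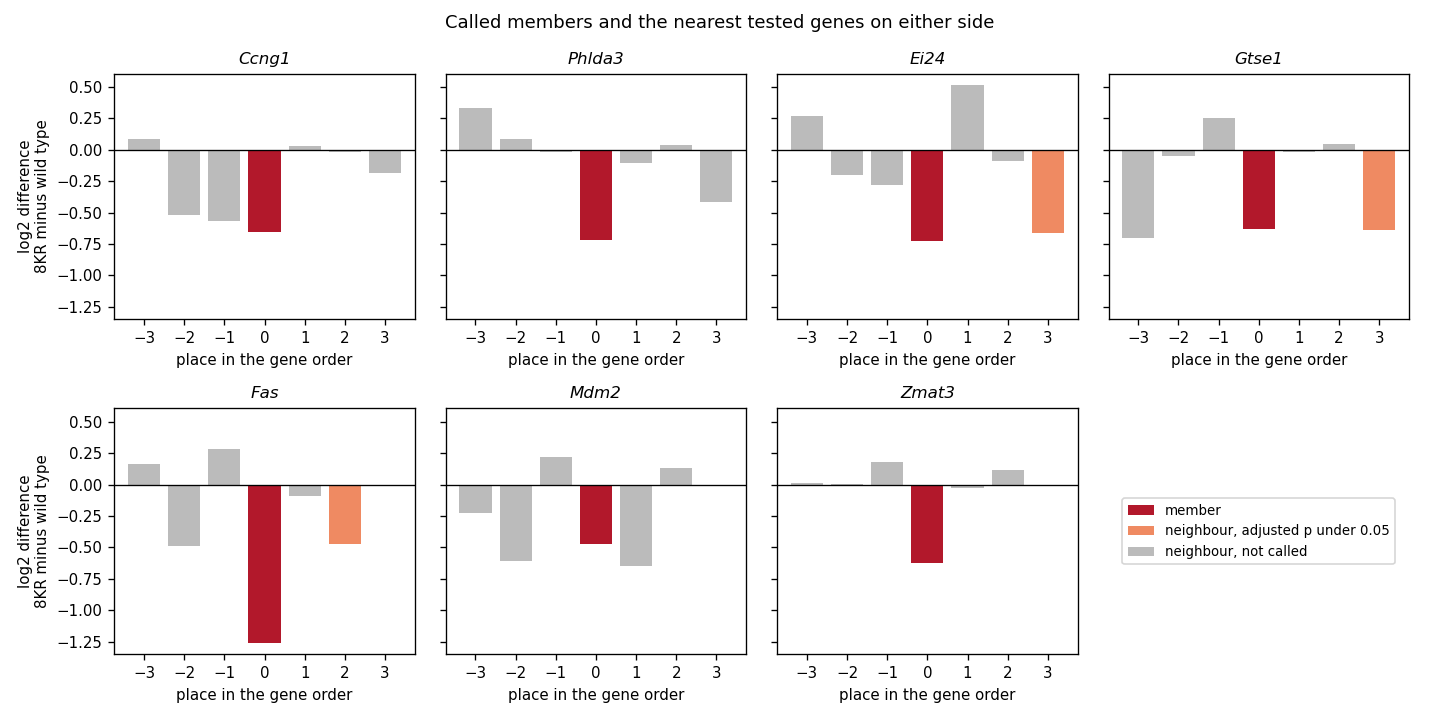
Log2 difference between 8KR and wild type cells (vertical axis, log2 units) of each of the 7 genes that fell (red, place 0) and of the 3 nearest tested genes on either side in the RefSeq gene order (horizontal axis, places from -3 to 3). Orange marks a neighbour with an adjusted p under 0.05 and grey one that did not pass. Orange bars stand in the panels of Ei24, Gtse1 and Fas only, 1 each.

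Further genes of the pathway were read from lists that hold none of the 35 and that were also chosen with earlier results known. Of 37 other genes known as p53 targets, 4 fell, 0 rose and 33 did not pass. The share that passed was 10.8%, against 5.39% of all genes tested (3.06% falling). Among the genes at least as bright as the dimmest p53 pathway gene tested, 7.26% passed (4.11% falling). Ephx1, an epoxide hydrolase that detoxifies foreign compounds, averaged 8.63 ± 0.04 in wild type and 7.31 ± 0.08 in 8KR cells (SD over 3 arrays) and fell by 1.32 on the log2 scale, with an adjusted p of 0.00180 from limma. The other 3 were the adenylate kinase gene Ak1 (log2 difference -0.75), the transcription factor gene Foxo3 (-0.65) and Pml (-0.56), which organizes nuclear bodies. Foxo3 lies 2 places from Sesn1 among the tested genes. At an unadjusted p under 0.05 from limma 17 of the 37 lay lower (45.9%) and 4 higher (10.8%), against the 11.0% and 10.9% given above for all genes. The median log2 difference of this list was -0.18.

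Of 37 regulators and cofactors of p53, 1 rose and 2 fell, or 8.11% against 5.39% of all genes tested and 7.26% of those as bright as the 31 genes, a share near the background. Hipk2, a kinase that phosphorylates p53 and favours its death program, averaged 8.22 ± 0.06 in wild type and 9.19 ± 0.13 in 8KR cells (SD over 3 arrays), a log2 rise of 0.97 with an adjusted p of 0.00709 from limma. Sirt1, a deacetylase that acts on p53, fell by 0.46 (adjusted p = 0.0327 from limma), and Ppp1r13b (ASPP1), which directs p53 to death genes, fell by 0.50 (adjusted p = 0.0432 from limma). The median of the list was 0.02, with 4 lower and 4 higher at an unadjusted p under 0.05 from limma, or 21.6% against 21.8% of all genes.

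Of 28 mitotic genes that p53 is known to lower through the Cdkn1a product p21, 2 fell and 0 rose, or 7.14%, which is also near the background. They were Ccnb2, a mitotic cyclin gene (log2 difference -0.87), and Cenpa, the centromeric histone gene (-0.42). At an unadjusted p under 0.05 from limma 6 of the list lay higher (21.4%) and 3 lower (10.7%), against 10.9% and 11.0% of all genes, and its median was 0.03. Of 20 cell cycle inhibitors and G1 cyclins, Btg1 (-0.62), a relative of Btg2, and the G1 kinase gene Cdk6 (-0.70) fell and 18 did not pass. Thus 10.0% passed, against 5.39% of all genes tested and 7.26% of those at least as bright as the dimmest p53 pathway gene tested. At an unadjusted p under 0.05 from limma 1 lay higher and 3 lower, or 20.0% against 21.8% of all genes. Of 27 further genes of the Bcl2 family and caspases, 0 passed with limma, and 9 had an unadjusted p under 0.05, 3 higher and 6 lower, or 33.3% against 21.8% of all genes. Bad, a BH3-only gene, had a log2 difference of -0.34 (adjusted p = 0.0723 from limma) and Casp2, an initiator caspase gene, of 0.40 (adjusted p = 0.0889 from limma).

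**Figure D5:**
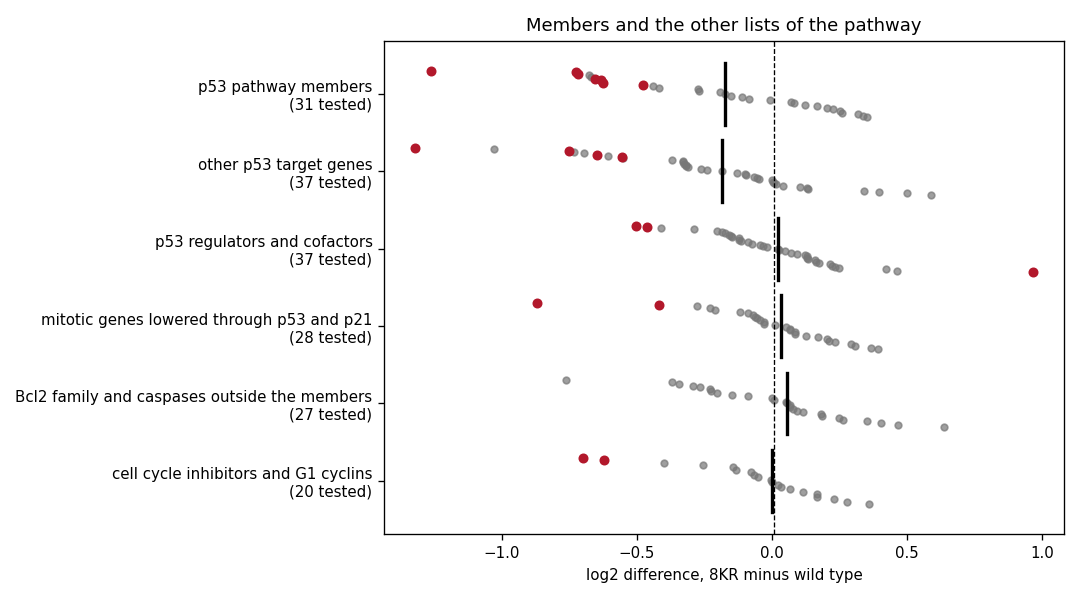
Log2 difference between 8KR and wild type cells (horizontal axis, log2 units) of the 31 p53 pathway genes and of 5 other lists of the pathway, with 1 point per gene, red where the adjusted p was under 0.05. The black bar is the median of a list and the dashed line that of all genes tested (0.01). The medians of the 31 genes and of the other p53 target genes lie at -0.18, and those of the other 4 lists between 0.00 and 0.05.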

How the data were processed

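Gene expression was measured on Affymetrix Mouse Gene 1.0 ST arrays, 3 per group, and the sample titles gave each array its group and replicate number. The authors normalized the array intensities and deposited them as log2 values, 1 per probe set and array (35557 probe sets). The submitters' processing notes list Affymetrix Power Tools 1.12.0. How the arrays were normalized, and on which genome build, the sources used here do not give. Arrays give no read counts, and their number limits the precision.

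As in the study's methods, a probe set was kept when the mean of at least 1 group exceeded 3.0, and the 28543 kept were fitted by lmFit and eBayes (limma 3.58.1, R 4.3.3; 8KR minus wild type, no covariates), with Benjamini-Hochberg adjustment over all of them. The fit was tested on simulated data. Symbols came from the platform annotation, updated through Entrez identifiers for genes outside the list, and probe sets with several symbols were not named. Cdkn1a, which was to be described whatever its values, was left out for that reason, and Trp53 was not analysed. Values were given in full for genes with an adjusted or unadjusted p under 0.05 and for Mdm2 and Cdkn2a. Those of Ppm1d were given as well, outside this rule. In each other list values were given for called genes up to 6, or the top ones by p. The members and lists were chosen with earlier results of these data known. Promoter windows and gene order came from RefSeq tables of assembly GRCm38.p6, and no coordinates of probe sets are given. Alternatives covered the filter, normalization, variance model, array weights, replicate block, probe set choice and each array left out in turn. Figures were drawn with matplotlib 3.10.9.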

Additional observations from a re-analysis of the deposited data

How the results depend on the processing

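The 7 genes that passed kept their direction in all 15 alternative fits, and so did the other 9 with an unadjusted p under 0.05. With a filter at a group mean above 5.0, 11 of the 27 genes left passed (1 higher, 10 lower). This was 40.7%, where 17.6% of the 9882 genes left in the series passed. When the fit held single-symbol probe sets alone, 11 of the 31 passed (1 higher, 10 lower). This was 35.5%, where 9.55% of all 17145 genes passed. In those fits 1736 and 1638 of all genes passed, and 11 of 29 and 10 of 37 other p53 target genes. Of the Bcl2 family and caspases, 5 of 25 and 3 of 27 genes passed. With an intensity trend in the variance 10 of the 31 genes passed (1 higher, 9 lower). This was 32.3%, where 1528 of all genes passed (8.91%). In that fit 8 other p53 target genes and 4 genes of the Bcl2 family and caspases passed. Plk2 was the gene that rose with the filter at 5.0, with single-symbol probe sets and with the trend. Its adjusted p from limma was 0.0246, 0.0409 and 0.0171 in that order. With no filter 5 of the 31 genes passed (16.1%, where 3.47% of all genes did), and 1 mitotic gene. Mdm2 (adjusted p = 0.0529 from limma) and Zmat3 (adjusted p = 0.0519 from limma) were not among the 5.

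With the replicate number as a block the number that passed was 0 of the 31 genes, 63 of all genes, 1 other p53 target gene and 0 each of the regulators, the mitotic genes and the cell cycle inhibitors, while 16 of the 31 still had an unadjusted p under 0.05 from limma. Same-numbered arrays did not deviate together over the probe sets tested (correlations of -0.01, 0.01 and 0.00). These values cannot show whether replicates with the same number were prepared together, which the sources used here do not say.

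With each array left out in turn, the number that passed was 0 to 2 of the 31 genes and 274 to 293 of all genes. It was 1 to 2 for other p53 target genes, 1 for regulators and cofactors, 0 to 1 for mitotic genes and 0 to 1 for cell cycle inhibitors and G1 cyclins. In these 6 fits Ccng1 passed in 2, Fas, Ei24, Gtse1 and Phlda3 in 1 each, and Mdm2 and Zmat3 in 0. These fits hold fewer arrays, and no other cause was tested.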
